A study of Mus musculus with 6 samples.

Results

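The microRNAs miR-15a, miR-15b, miR-16, miR-195, miR-497 and miR-322 form a family that shares a seed, the stretch of bases near the 5′ end through which a microRNA pairs with its target messenger RNAs. They were chosen by assay name, without passenger (star) strands, and all 6 names had an assay among the 517 microRNA assays of the study. The samples were whole aortas of 6 male mice that lacked Apoe, a model of atherosclerosis, and all carried Cre recombinase at the LysM locus, which is active in macrophages, monocytes and neutrophils. In 3 mice both copies of Dicer were floxed (LysM-Cre/Dicerflox/flox/Apoe–/–, called Dicer_KO), and 3 littermates had wild-type Dicer (LysM-Cre/Dicerwt/wt/Apoe–/–, called Dicer_WT). The mice were 6 to 8 weeks old when a high-fat diet with 21% crude fat began, and they ate it for 12 weeks. The labels name the cell type as macrophage, but the RNA was that of the whole vessel, and the smooth muscle (2 of 2) and endothelial (2 of 2) marker assays were detected along with the myeloid ones (9 of 9). Array cards of TaqMan PCR assays gave a threshold cycle (Ct) per assay and aorta, in which 1 cycle less stands for about 2 times the RNA.

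Members of this family are known to repress cyclins, cyclin-dependent kinases and the survival factor BCL2, and so to slow cell division and favour apoptosis. In blood vessels they have been studied as brakes on endothelial growth and on smooth muscle proliferation. Dicer cuts the hairpin precursor of each of them to the mature strand. The comparison asked how the family's levels in the atherosclerotic aorta differ when Dicer is deleted in LysM-expressing cells.

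The mature sequences are shown because the seed defines the family and because the remaining bases decide which members an assay could mistake for each other. All 6 matched a mouse entry of RefSeq (GRCm38.p6), and capitals mark bases 2 to 8 of each strand, the seed.
miR-15a: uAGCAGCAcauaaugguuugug
miR-15b: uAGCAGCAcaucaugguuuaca
miR-16: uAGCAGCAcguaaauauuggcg
miR-195: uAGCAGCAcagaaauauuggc
miR-497: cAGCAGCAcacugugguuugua
miR-322: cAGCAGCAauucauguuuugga
All 6 carried the same 7 bases, whose matching site in a target RNA reads UGCUGCU. Of 1679 mature names in the table, 10 had this seed. The other 4 were miR-195b, miR-6342, miR-6353 and miR-6419, which were not analysed here. Beyond the seed the members diverged. Compared position by position from the 5′ end, miR-16 and miR-195 were the closest pair with 19 of 21 bases identical, followed by miR-15a and miR-15b with 18 of 22. miR-16 and miR-497 shared 11 of 22. Whether the assays tell the closest pairs fully apart was not tested. miR-195b has 18 of 21 bases in common with miR-195.

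The 6 members come from 4 pairs of neighbouring hairpins (GRCm38.p6). Mir15a (chr14:61632027-61632110, minus strand) and Mir16-1 (chr14:61631880-61631972, minus strand) lie 54 bases apart within Dleu2, a long noncoding RNA gene. Mir15b (chr3:69009772-69009835, plus strand) and Mir16-2 (chr3:69009902-69009996, plus strand) lie 66 bases apart within Smc4, which codes for a condensin subunit. Both Mir16 hairpins give the same mature miR-16, so the miR-16 assay reads the sum of the Dleu2 and Smc4 loci. Mir497 (chr11:70234717-70234800) and Mir195a (chr11:70235042-70235135), both on the plus strand, are separated by 241 bases. Mir497 lies within the span of Mir497b, another microRNA gene, and Mir195a within no other listed gene. Mir322 (chrX:53054255-53054349, minus strand) lies 200 bases from Mir503 (chrX:53053984-53054054, minus strand), both within the noncoding gene C430049B03Rik. The gene table used gives no exons, so exon and intron were not assigned.

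All 6 members were detected in every aorta, with detection taken as a Ct below 35. miR-16 had the lowest Ct of the family, from 17.172 to 18.592, and ranked 18th of 330 assays detected in all 6 aortas. miR-195 followed at rank 28, with a Ct 1.01 ± 0.103 cycles above that of miR-16 in the same aorta (SD, n = 6). The next step was the largest: miR-497 lay 3.24 ± 0.0886 cycles above its cluster partner miR-195, at rank 93. miR-497, miR-15b and miR-15a, at ranks 93, 98 and 99, had mean Ct values of 22.2, 22.4 and 22.5. Their neighbouring steps of 0.19 ± 0.337 and 0.014 ± 0.395 cycles were within their spread over all 6 aortas, which pools the genotypes. The first step had a mean of 0.452 in Dicer_WT and -0.066 in Dicer_KO aortas. The second had a mean of -0.328 in Dicer_WT and 0.355 in Dicer_KO aortas. miR-322 had the highest Ct, from 23.734 to 24.682, at rank 145, and lay above miR-15a in 6 of 6 aortas. Ct differences between assays also hold differences in primer efficiency and preamplification, so this order describes assay readings and not molecule numbers.

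On the authors' scale, 4 members (miR-15a, miR-16, miR-195 and miR-497) had a lower mean in Dicer_KO than in Dicer_WT aortas and 2 members (miR-15b and miR-322) a higher one, where 78.2% of all assays were below 0 and 21.8% above. None of these differences passed the test. In limma, 0 of 6 members had an adjusted p under 0.05 over the 377 assays tested, against 1.86% of all assays, and 0 of 6 had an unadjusted p under 0.05, against 26.8%. The members' adjusted p-values ran from 0.226 to 0.519. The median log2 difference of the members was -0.32, a fold of 0.804, beside -0.42 for all assays tested, a fold of 0.749. The groups overlapped for all 6 members. Over all assays, 32.6% were lower and 2.39% higher in Dicer_KO without overlap. In whole-vessel RNA, fewer cells of a type and less RNA per cell cannot be told apart.

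**Figure D1:**
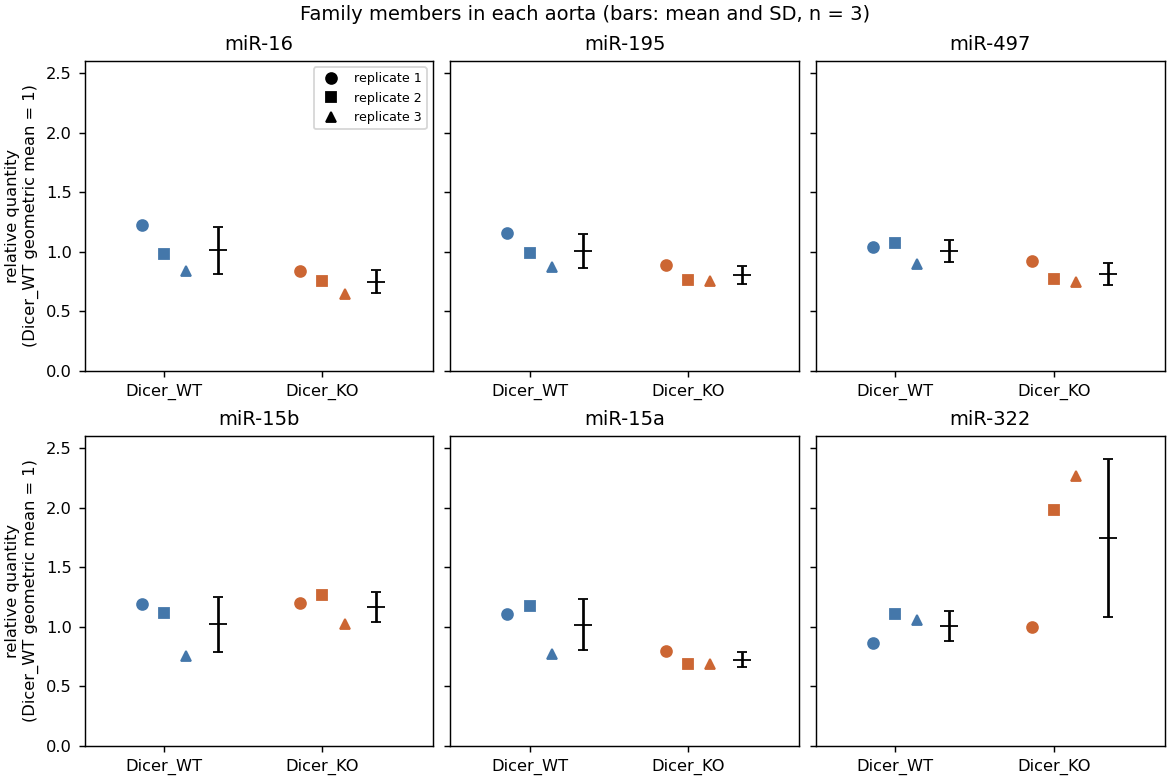
Relative quantity of each family member in each aorta on the authors' linear scale, scaled to a Dicer_WT geometric mean of 1; symbols mark the replicate, and black bars the mean and SD (n = 3). For miR-16, miR-195, miR-497 and miR-15a, 2 Dicer_KO points lie below every Dicer_WT point and 1 overlaps, miR-15b has 2 Dicer_KO points just above the highest Dicer_WT point and 1 within the Dicer_WT range, and miR-322 has 2 Dicer_KO aortas near 2 and 1 near 1.

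miR-16, which is also abundant in red blood cells, had relative quantities of 1.22, 0.978 and 0.835 in Dicer_WT replicates 1 to 3 and of 0.840, 0.756 and 0.645 in Dicer_KO replicates 1 to 3. Only Dicer_KO replicate 1 reached the Dicer_WT range, at the level of the lowest Dicer_WT aorta. The log2 difference was -0.43 ± 0.220 (SE, n = 3 each, limma adjusted p = 0.229), with a 95% interval of -0.97 to 0.11. It rested in part on Dicer_WT replicate 1, without which it was -0.28. Markers of other cells moved in the same aortas. The summed level of the erythroid assays miR-451 and miR-486 ran from 1.84 to 2.67 in Dicer_KO and from 0.395 to 1.63 in Dicer_WT aortas (Dicer_WT mean of 1), a direction opposite to that of miR-16. Taken singly, 1 of these 2 erythroid assays was higher in Dicer_KO without overlap, against 2.39% of all assays. The sum of 9 myeloid assays ran from 0.424 to 0.688 in Dicer_KO and from 0.822 to 1.21 in Dicer_WT aortas, and none was silent in all aortas. Of the 9, 9 were below 0, against 78.2% of all assays, and 7 were lower without overlap, against 32.6%. These counts do not separate assays detected in both groups from any detected in Dicer_WT aortas only. An assay of the latter kind would tend to lie below 0 by construction, so its direction would not be an observation. The smooth muscle assays miR-143 and miR-145 were both lower in every Dicer_KO aorta, as were 32.6% of all assays. This was the direction of the 4 lower members, with a summed level from 0.622 to 0.944 against 0.950 to 1.05 and a median log2 difference of -0.59. The liver microRNA miR-122 ran from 1.55 to 2.72 in Dicer_KO and from 0.286 to 1.81 in Dicer_WT aortas. The sums of the endothelial, striated muscle and lymphoid assays overlapped between the groups. None of these marker assays passed in limma, and the part of these cells in the family's values was not tested.

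miR-15a, the Dleu2 partner of miR-16, was at 1.10, 1.17 and 0.773 in Dicer_WT and at 0.795, 0.686 and 0.688 in Dicer_KO replicates 1 to 3. Here Dicer_WT replicate 3 lay among the Dicer_KO aortas, and the other two Dicer_WT aortas stood clear of them. The log2 difference was -0.47 ± 0.224 (SE, limma adjusted p = 0.226). Its passenger strand miR-15a*, cut from the same hairpin, had a difference of -0.40 ± 0.209 (adjusted p = 0.233).

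miR-15b, the Smc4 partner of miR-16, was at 1.19, 1.11 and 0.756 in Dicer_WT and at 1.20, 1.27 and 1.02 in Dicer_KO replicates 1 to 3. Dicer_KO replicates 1 and 2 lay just above the highest Dicer_WT aorta and replicate 3 within the Dicer_WT range. The log2 difference was 0.21 ± 0.238 (SE, limma adjusted p = 0.519). Without Dicer_WT replicate 3, the lowest aorta, it was 0.010. Among all assays tested, 317 of the 376 others had a lower difference. Its passenger strand miR-15b* had a difference of 0.11 ± 0.328 (adjusted p = 0.799).

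Ratios of assays read on the same card within an aorta do not depend on the reference RNAs. All 6 members were on the first card. In each aorta, the Ct of miR-16 minus that of miR-15b gives the log2 of miR-15b over miR-16 in assay units. It was -4.81, -4.57 and -4.90 in Dicer_WT and -4.25, -4.01 and -4.10 in Dicer_KO replicates 1 to 3. Every Dicer_KO aorta thus had more miR-15b per miR-16 than every Dicer_WT aorta, a difference of 0.64 cycles or 1.56-fold (two-sided exact permutation p = 0.1, below which 3 against 3 aortas cannot go, and 0.267 after Benjamini-Hochberg adjustment over 8 pairs). The ratio of miR-15a to miR-16, by the same subtraction, had a mean of -4.43 ± 0.229 across Dicer_WT and of -4.47 ± 0.121 across Dicer_KO aortas (SD over 3). This difference of -0.042 was within the spread of the aortas (exact permutation p = 0.9, adjusted p = 0.9).

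The direct ratio of miR-15b to miR-15a, a pair chosen after its values were seen and therefore not tested, did not overlap between genotypes. The log2 of miR-15b over miR-15a was -0.22, -0.40 and -0.36 in Dicer_WT and 0.27, 0.56 and 0.24 in Dicer_KO replicates 1 to 3. miR-15a, next to miR-15b in sequence, thus read above it in all 3 Dicer_WT aortas and below it in all 3 Dicer_KO aortas. These are assay units, in which 0 does not mark equal amounts. Only the shift between genotypes, from a mean of -0.328 in Dicer_WT to 0.355 in Dicer_KO aortas, can be read, as a description. The share of non-overlapping ratios among all assay pairs was not computed.

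**Figure D2:**
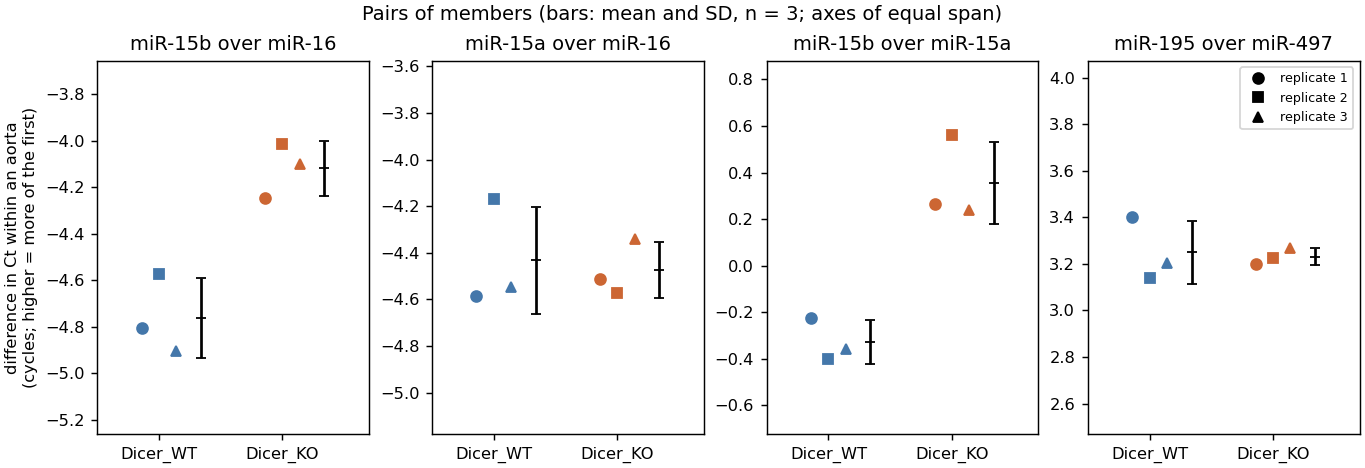
Difference in Ct between 2 assays within each aorta, in cycles, where a higher value means more of the first-named microRNA; symbols mark the replicate, black bars the mean and SD (n = 3) (all axes have the same span). miR-15b over miR-16 lies from -4.90 to -4.57 in Dicer_WT and from -4.25 to -4.01 in Dicer_KO aortas, miR-15b over miR-15a is higher in every Dicer_KO aorta, and the other pairs overlap.

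Guide strands were also set against their passenger strands, which were read on the second card. The log2 of miR-16 over miR-16* was 10.7 ± 0.164 across Dicer_WT aortas (SD over 3) and 10.2 ± 0.0938 across Dicer_KO aortas, a difference of -0.49 cycles with every Dicer_KO aorta lower (exact permutation p = 0.1, adjusted p = 0.267). RefSeq lists different passenger strands for Mir16-1 and Mir16-2, and the assay name does not say which one it reads. For miR-15a the same quantity differed by only -0.11 cycles, also with every Dicer_KO aorta lower (exact permutation p = 0.1, adjusted p = 0.267). For miR-15b it differed by 0.060 and for miR-322 by 0.083, both with overlapping groups (exact permutation p = 0.9 and adjusted p = 0.9 for each). The difference of miR-15a was -0.060 without Dicer_KO replicate 2. The differences of miR-15a, miR-15b and miR-322 turned sign with the scale used. That of miR-16 kept its sign, from -0.71 with quantile normalization to -0.28 with mean centring.

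miR-195 and miR-497, made from neighbouring hairpins, had nearly the same difference. miR-195 was at 1.16, 0.992 and 0.872 in Dicer_WT and at 0.891, 0.759 and 0.754 in Dicer_KO replicates 1 to 3. Dicer_KO replicate 1 lay within the Dicer_WT range and the other two below it. The log2 difference was -0.32 ± 0.190 (SE, limma adjusted p = 0.274, 95% interval -0.79 to 0.14). miR-497 was at 1.04, 1.07 and 0.899 in Dicer_WT and at 0.921, 0.772 and 0.744 in Dicer_KO replicates 1 to 3, with the same aorta overlapping. Its log2 difference was -0.31 ± 0.181 (adjusted p = 0.274). miR-195 over miR-497 was 3.25 ± 0.135 cycles across Dicer_WT aortas (SD over 3) and 3.23 ± 0.0346 across Dicer_KO aortas, a difference of -0.017 (exact permutation p = 0.9, adjusted p = 0.9).

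For miR-195 the authors' deposited table of fold changes gives 0.133, whereas the ratio of the arithmetic means of the authors' relative quantities is 0.796, larger by a factor of 6. For the other 5 members the authors' deposited table equals that ratio, at 0.712 for miR-15a, 1.14 for miR-15b, 0.738 for miR-16, 0.810 for miR-497 and 1.74 for miR-322. Of all 517 assays, 515 matched within a relative difference of 1e-05, and the other assay that did not match was let-7b, at 0.349 in the authors' deposited table against a ratio of 0.668. The deposited 0.133 is also lower than the relative quantity of miR-195 in any aorta, of which the lowest is 0.754.

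miR-322, the mouse counterpart of human miR-424 and a microRNA known from muscle differentiation and hypoxia, had the highest difference of the family. It was at 0.860, 1.10 and 1.05 in Dicer_WT and at 0.995, 1.98 and 2.26 in Dicer_KO replicates 1 to 3. Dicer_KO replicates 2 and 3 stood above every Dicer_WT aorta, and Dicer_KO replicate 1 lay among them. The log2 difference was 0.72 ± 0.350 (SE, limma adjusted p = 0.226), with a 95% interval of -0.14 to 1.58. Only 25 of the 376 other assays had a higher difference. Without Dicer_KO replicate 1 it was 1.08 and passed the test (limma adjusted p = 0.0374; the alternatives spanned 0.0374 to 0.478). In that comparison 17.0% of all assays passed in either direction and 2.39% as higher in Dicer_KO.

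Of the 6 neighbouring assays detected on the X chromosome, miR-322* and miR-503* showed the same split among the Dicer_KO aortas. The passenger strand miR-322* was at 0.955, 1.04 and 1.01 in Dicer_WT and at 0.687, 2.25 and 2.23 in Dicer_KO replicates 1 to 3. miR-503* was at 0.839, 1.08 and 1.11 and at 1.08, 1.90 and 1.88. For both strands, Dicer_KO replicates 2 and 3 were above every Dicer_WT aorta and replicate 1 was not. miR-503, whose seed differs from the family's in its last base (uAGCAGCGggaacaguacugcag), was at 1.13, 1.44 and 0.614 and at 0.713, 1.50 and 1.33, with overlapping groups. The log2 differences were 0.60 ± 0.493 for miR-322* (SE, limma adjusted p = 0.393), 0.65 ± 0.289 for miR-503* (adjusted p = 0.212) and 0.17 ± 0.435 for miR-503 (adjusted p = 0.767). The other neighbours, whose groups also overlapped, were at -0.11 ± 0.568 for miR-542-3p, -0.28 ± 0.376 for miR-542-5p and 0.0012 ± 0.444 for miR-450a-5p (SE). Of the 7 detected assays of this cluster, 0 passed in limma and 5 were above 0, with a median log2 difference of 0.17. Dicer_KO replicate 1 was the lowest of the Dicer_KO aortas for 7 of 7, against 22.3% of all assays tested and 0 of the other 5 family members. This count was not planned: it follows a trait seen in miR-322, which is 1 of the 7, and is a description and not a test. These assays share 1 locus and the same aortas and are not independent. miR-322 over miR-503 was 2.59 ± 0.674 in Dicer_WT and 3.14 ± 0.192 in Dicer_KO aortas (exact permutation p = 0.4, adjusted p = 0.8), a difference of 0.55 that was 0.94 without Dicer_WT replicate 3 and 0.35 without Dicer_WT replicate 1.

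**Figure D3:**
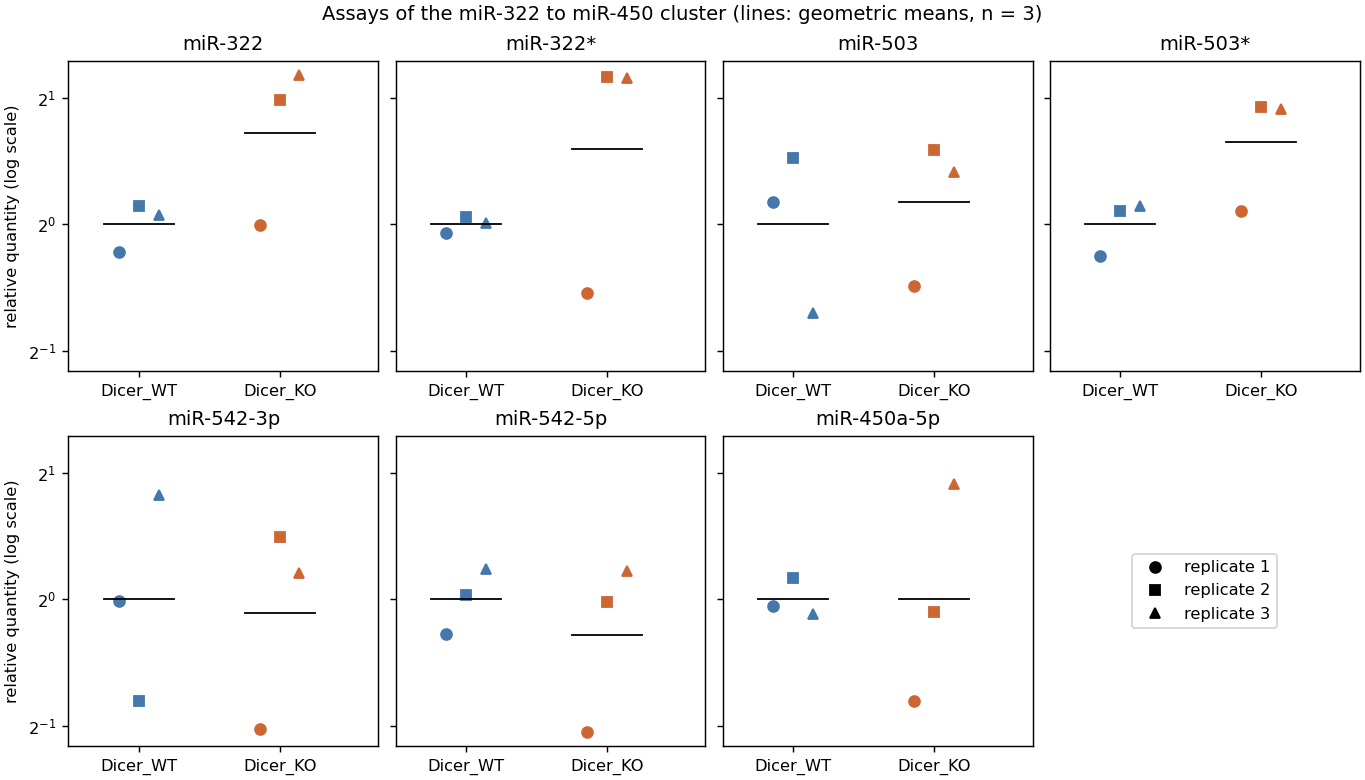
Relative quantity, on a logarithmic axis, of the 7 detected assays of the X-chromosome cluster in each aorta; symbols mark the replicate and black lines the geometric mean (n = 3). Dicer_KO replicate 1 (circle) is the lowest Dicer_KO point in every panel, and replicates 2 and 3 of miR-322, miR-322* and miR-503* lie above all Dicer_WT points.

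The sign of the 4 lower members depended on the scale, whereas the spacing of the members hardly did, since, apart from quantile normalization, each scale moves all assays of a card by the same amount. With the control RNAs U87 and Y1 as the reference, miR-15a was at 0.041, miR-16 at 0.082, miR-195 at 0.19 and miR-497 at 0.21. The control RNA U87 itself differed by -0.47 and Y1 by -0.55 on the first card of the authors' scale. miR-15b was at 0.72 and miR-322 at 1.23 on that scale. Without normalization miR-15b was at -0.013. After centring each aorta on the median of its detected assays, a scale added after the data had been seen, all Dicer_KO aortas lay below all Dicer_WT aortas for miR-15a (-0.26) and above them for miR-15b (0.42). On that scale the groups were apart as lower for 28.4% and as higher for 4.24% of all assays, and 0 members passed in limma. The other 4 members overlapped there. miR-322 stayed above 0 on every scale tried. The gap between miR-15b and miR-15a, both on the first card, is by construction the same on every scale but quantile normalization, where it also stayed above 0.

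**Figure D4:**
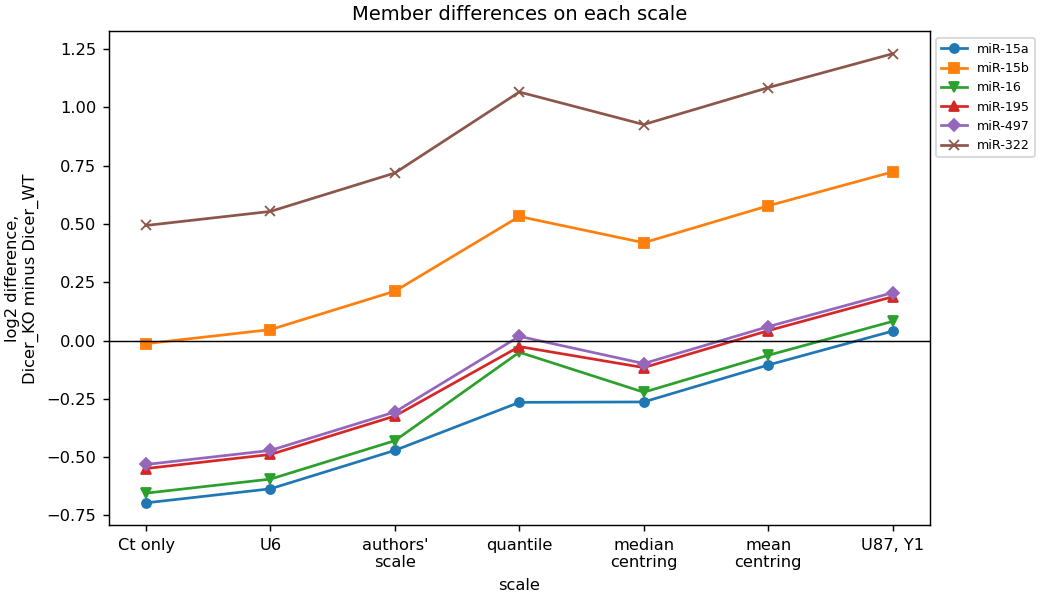
Log2 difference between Dicer_KO and Dicer_WT aortas of each member on 7 scales, from raw Ct at the left to U87 and Y1 as the reference at the right; lines join the same microRNA. The curves of miR-15a, miR-16, miR-195 and miR-497 run close together and cross or approach 0, with miR-15b and miR-322 above them throughout.

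Related microRNAs were taken from a list of microRNAs with a similar start, cluster neighbours and passenger strands. Of 18 listed, 13 had an assay, and miR-351 and miR-450a-3p gave no product in any aorta. miR-450b-5p, a further X-chromosome neighbour that was not listed, stood at a Ct of 40 in every aorta as well. Of the 11 tested, 0 passed in limma and 1 had an unadjusted p under 0.05, with 5 below 0 and 6 above. That 1 was miR-103, an intronic microRNA of the pantothenate kinase genes whose seed is shifted by a base (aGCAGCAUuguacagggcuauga). It was at 1.11, 1.00 and 0.896 in Dicer_WT and at 0.661, 0.573 and 0.521 in Dicer_KO replicates 1 to 3, lower in every Dicer_KO aorta, as were 32.6% of all assays. Its log2 difference was -0.78 ± 0.187 (SE, limma adjusted p = 0.0746, and 0.0457 without Dicer_KO replicate 1). It depended on the scale, at -0.41 with mean centring (adjusted p = 0.131) and -0.27 relative to U87 and Y1 (adjusted p = 0.330), and the adjusted p stayed above 0.05 under the other alternatives. miR-107, which differs from it near the 3′ end only (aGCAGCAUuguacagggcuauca), was at -0.27 ± 0.271 (adjusted p = 0.468).

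**Figure D5:**
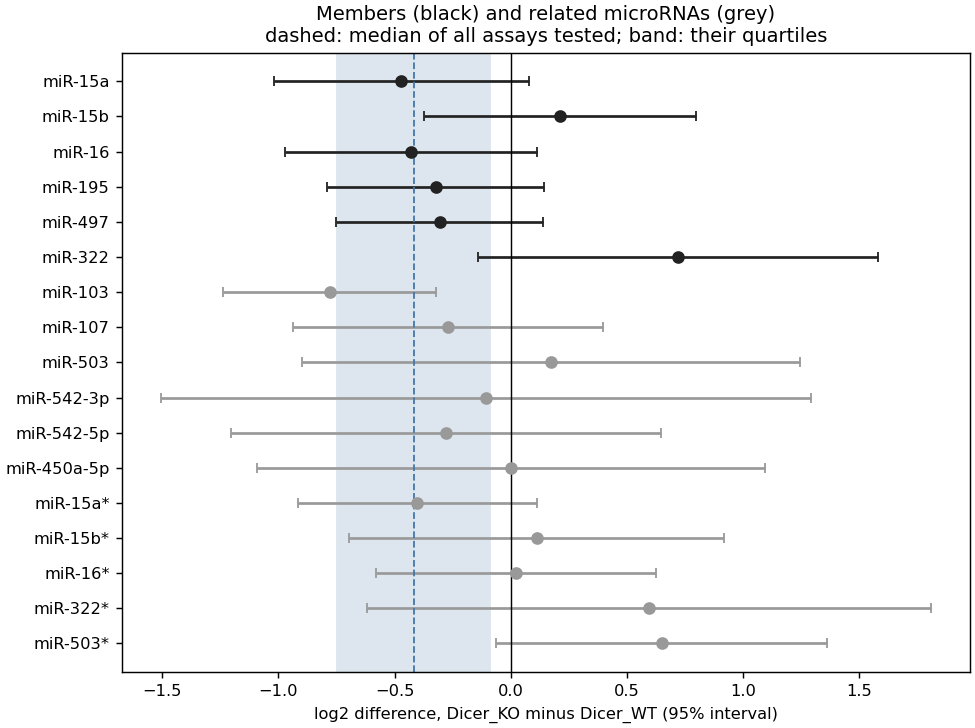
Log2 difference between Dicer_KO and Dicer_WT aortas, with its 95% interval, for the 6 members (black) and the 11 related microRNAs tested (grey); the dashed line is the median of all 377 assays (-0.42) and the band spans their quartiles, from -0.75 to -0.09. All members' intervals include 0, and among the related microRNAs the interval of miR-103 does not.

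The profile of the family mean over the 6 aortas was nearest to those of miR-676*, miR-491, miR-19b, miR-30e and miR-19a, among 324 other assays detected in every aorta. Their root mean square distances were 0.056 to 0.091 on the log2 scale, beside a median of 0.43 over the 324 assays. The family mean averages 4 members below 0 with 2 above, and lay at -0.10, -0.065 and -0.13 in Dicer_KO replicates 1 to 3. Assays near this mean therefore need not resemble any single member. The nearest to miR-322 alone, looked up after its values were seen, were miR-503* at 0.13, miR-378 at 0.16, miR-878-3p at 0.16, its own passenger strand miR-322* at 0.24 and miR-126-5p at 0.26.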

How the data were processed

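Whole-aorta RNA was reverse-transcribed and preamplified with TaqMan reagents per the labels' protocols, and the replicates are called biological there, so each aorta was taken as 1 mouse. The Ct table deposited by the authors gives 40 for wells without product and repeats the control RNAs in blocks that part 2 cards of 335 and 182 microRNA assays; 5 cells with a decimal comma were read as points. The relative quantities deposited by the authors are a linear ratio. From the values, its log2 equals the mean Ct of U6, snoRNA135 and snoRNA202 (on the second card also snoRNA429) minus the assay's Ct, scaled to a Dicer_WT geometric mean of 1 (largest difference 5.22e-06). The third table holds the authors' deposited fold changes, also a ratio. Neither Ct software nor array lots are given in the sources used here. No batch could be tested, and Dicer was not measured.

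Wells at or above Ct 35 were set to 35. The 377 assays detected in 2 or more of the 3 aortas of either group were fitted with limma 3.58.1 in R 4.3.3 (two-sided, Benjamini-Hochberg over all, threshold 0.05), after tests on simulated data. Fixed pairs were compared by exact permutation tests of Ct differences. The 6 aortas limit the precision. Members and lists were chosen with earlier results of these data known. The assays named were the members, their pair partners, the related list, the 5 nearest profiles, marker lists and control RNAs. Those nearest to miR-322, and the pair of miR-15b and miR-15a, were chosen after their values were seen. The count of X-chromosome cluster assays with Dicer_KO replicate 1 lowest was not planned either.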

Additional observations from a re-analysis of the deposited data

How the results depend on the processing

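Over 19 alternatives no member was called except miR-322 without Dicer_KO replicate 1 (leaving out single aortas gave 0.49 to 1.08 for miR-322, 0 to 1 members called and 5 to 64 of all assays called, with 64 without Dicer_KO replicate 1). Differences turned relative to U87 and Y1 for miR-15a (0.041), miR-16 (0.082), miR-195 (0.19) and miR-497 (0.21), with mean centring for miR-195 (0.042) and miR-497 (0.060), with quantile normalization for miR-497 (0.018), and on raw Ct for miR-15b (-0.013). The members' median was -0.54 on raw Ct, 0.051 with mean centring, -0.11 with median centring (added after the data were seen), 0.20 relative to U87 and Y1 and -0.0039 after quantile normalization. All assays called numbered 26 at a Ct cutoff of 32, 13 with wells at Ct 40 taken as measured and 22 over assays detected in all 6 aortas. Among ratios, miR-15a over miR-15a* turned to 0.11 with mean centring and 0.015 relative to U6, and relative to U87 and Y1 miR-15b over miR-15b* turned to -0.027 and miR-322 over miR-322* to -0.0040. Leaving out single aortas gave -0.12 to 0.090 for miR-15a over miR-16, -0.14 to -0.060 for miR-15a over miR-15a*, -0.071 to 0.058 for miR-195 over miR-497, -0.038 to 0.19 for miR-15b over miR-15b* and -0.15 to 0.26 for miR-322 over miR-322*. Fits without an aorta kept the same 377 assays.

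Over all assays the replicate numbers showed no pairing of the aortas. Same-numbered aortas deviated with correlations of -0.084, -0.097 and 0.043, and 0 of 3 Dicer_KO aortas correlated best with their own number. So few aortas cannot exclude a pairing. With the replicate number as a block, 7 assays and 0 members were called, at unchanged differences such as 0.72 for miR-322 (limma adjusted p = 0.137). The SE of every member was smaller with the block, at 0.123 against 0.220 for miR-16 (limma adjusted p = 0.122) and 0.236 against 0.350 for miR-322. Whether same-numbered aortas belong together was therefore not settled.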
